A study of Homo sapiens with 12 samples.

Results

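The JUN family comprises JUN, JUNB and JUND, which encode 3 transcription factors of the AP-1 group. They were taken by gene symbol from the deposited count matrix, so the family is 3 of 60623 gene rows, and all 3 were among the 17096 genes with enough reads to be tested. The matrix covers 12 RNA libraries of NUGC-4, an established human line from a diffuse gastric cancer, labelled wild type. The 4 groups, each of 3 libraries, were a control, 1 µM IN10018, 1 µM crizotinib and both drugs together at 1 µM each, all collected at 24 h. IN10018 inhibits focal adhesion kinase (FAK), a kinase of cell contacts with the matrix, and crizotinib inhibits the receptor kinases MET, ALK and ROS1. All groups are 1 cell line in culture, and no label tells if libraries of 1 group were grown apart. P-values therefore measure the spread between these libraries, which may be technical. In bulk RNA, fewer cells that express a gene and less of its RNA per cell cannot be told apart.

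AP-1 is a dimer. JUN proteins can pair with one another or with FOS, ATF and MAF proteins through leucine zippers, and the dimers bind the TPA response element TGACTCA or the related cyclic AMP response element TGACGTCA. JUN and JUNB are immediate-early genes, switched on within minutes of growth factor or stress signals and quickly shut off, while JUND is expressed more steadily and often opposes proliferation. JUN is activated by phosphorylation by JNK kinases and can raise its own transcription, and JUNB can oppose JUN on some targets. In epithelial tumours AP-1 is known for relaying receptor kinase and adhesion signals to genes of proliferation, invasion and matrix remodelling.

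The 3 genes have almost no introns. On GRCh38, JUN (ENSG00000177606) lies on chromosome 1 from 58780788 to 58784327 on the minus strand, with 1 exon of 3540 nt and a coding sequence of 996 nt. JUNB (ENSG00000171223) lies on chromosome 19 from 12791496 to 12793315 on the plus strand, with 1 exon of 1820 nt. JUND (ENSG00000130522) lies on the same chromosome from 18279760 to 18281622 on the minus strand, where its longest annotated transcript is 1 exon of 1863 nt. Coding sequences of JUNB and JUND are both 1044 nt long. The transcripts are GC-rich to different degrees. GC content was 56.7% for JUN, 64.9% for JUNB and 69.7% for JUND, higher than in 77.0, 96.5 and 99.6% of tested genes, respectively. The longest run of identical bases between members was 20 nt (JUN and JUNB).

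The sequences just upstream of the 3 genes are shown because JUN is known to be regulated through AP-1-like elements of its own promoter, and because the members moved unequally in these data. The stretches come from RefSeq on GRCh38.p14, read 5′ to 3′ on the strand of the gene. For JUN the capitals mark the AP-1-like elements TGACATCA (chr1:58784089-58784118) and TTACCTCA (chr1:58784215-58784244), each inside 30 bases. For JUNB (chr19:12791236-12791485) they mark the CCAAT box and the TATA box TATAA. For JUND (chr19:18281623-18281872) they mark the cyclic AMP response element TGACGTCA, a separate copy of its core GACGTCA, the CCAAT box and the TATA box.

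JUN, proximal element: ggggTGACATCAtgggctatttttaggggt
JUN, distal element: gcagcggagcaTTACCTCAtcccgtgagcc
JUNB, 250 bases before the start: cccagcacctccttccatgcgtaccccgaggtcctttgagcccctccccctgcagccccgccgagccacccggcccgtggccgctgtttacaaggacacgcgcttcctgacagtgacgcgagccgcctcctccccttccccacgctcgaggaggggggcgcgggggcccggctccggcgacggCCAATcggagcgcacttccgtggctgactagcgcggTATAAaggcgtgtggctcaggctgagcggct
JUND, 250 bases before the start: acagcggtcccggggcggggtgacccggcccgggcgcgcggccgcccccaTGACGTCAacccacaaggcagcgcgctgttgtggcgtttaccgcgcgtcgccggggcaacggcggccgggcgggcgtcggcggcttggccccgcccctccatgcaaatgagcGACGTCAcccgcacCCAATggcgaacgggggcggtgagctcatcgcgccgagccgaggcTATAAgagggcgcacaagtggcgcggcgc

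Motifs were searched as exact letters on both strands of the 250 bases before the RefSeq start, in the 3 members and in 35116 promoters of the same length. TGACATCA was found once in JUN, from 67 to 60 bases before the start, and in 2.37% of promoters. TTACCTCA was found once in JUN, from 186 to 179 bases before the start, and in 0.644% of promoters. TGACGTCA was found once in JUND, from 200 to 193 bases before the start, and in 1.65% of promoters. The 7-base core GACGTCA, which overlaps that element, occurs in 3.12% of promoters, and JUND holds a separate copy from 88 to 82 bases before the start. The classical TGACTCA, present in 4.2% of promoters, was found in none of the 3. ATTGG, the inverted CCAAT box, occurs once in each member and in 32% of promoters. TATAA was found in JUNB and JUND and in 18.9% of promoters, and GGGCGG, the core of SP1 sites, was found 2 times in JUN, 5 times in JUND and in 42.6% of promoters. These matches describe letters in the window and are not evidence of binding. The annotation used for lengths places the start of JUN 280 nt further upstream than RefSeq, so both JUN elements lie inside its annotated first exon there, whereas the starts differ by 10 nt for JUNB and 0 nt for JUND.

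Column totals ran from 13691844 to 20489708 reads, and no pair of libraries was identical. Libraries differed within the crizotinib and combination groups. Mitochondrially encoded genes took at most 11.9% of reads in control and 11.5 to 12.7% with IN10018, but 13.3, 5.21 and 9.46% in crizotinib libraries 1 to 3 and 6.99, 4.28 and 6.62% in combination libraries 1 to 3. Crizotinib library 2 also stood at 57.8 on the first principal component (67.2% of variance), against -4.61 and 10.3 for the other crizotinib libraries, within the range of the combination libraries (37.8 to 91.4). Some results below are given with and without crizotinib 2 and combination 2. The family shares, the per-length totals and the counts by GC content are given only with them. The gastric label was met in part. KRT8 and KRT18, keratins of simple epithelium, averaged 1391 and 617 CPM in control (CPM, counts scaled to library size with TMM factors), while KRT19, TFF2, CDX1 and PGC had 0 reads in every library and 3 of 20 gastric epithelial markers exceeded a mean of 10 CPM. COL3A1, a fibrillar collagen typical of fibroblasts, averaged 6046 CPM in control, with FAP at 0 reads. Of 10 fibroblast markers, 2 exceeded a mean of 10 CPM. A description label mentions adipogenic differentiation, yet ADIPOQ, CIDEA and LPL had 0 reads, while FABP4 averaged 71.3 CPM. Of 14 adipocyte markers in the matrix, 3 exceeded a mean of 10 CPM. Summed over each list, the control, IN10018, crizotinib and combination ranges were 1982 to 2112, 1683 to 1852, 1808 to 3161 and 2371 to 3621 CPM for gastric epithelial markers. They were 6303 to 6953, 5728 to 6740, 5659 to 7030 and 5364 to 6408 CPM for fibroblast markers, 126 to 136, 119 to 127, 126 to 171 and 154 to 191 CPM for adipocyte markers, and 37.1 to 45.6, 41.3 to 45.8, 51.5 to 59.8 and 62.3 to 75.1 CPM for immune and endothelial markers. In control, COL3A1 alone made up most of the fibroblast sum, and KRT8 and KRT18 most of the gastric epithelial sum. The part of these markers in the results below was not tested.

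JUN fell in every treatment, most with both drugs. Its level was 43.5, 51.5 and 73.9 CPM in control libraries 1 to 3 and 18.9, 20.6 and 27.0 CPM with IN10018. It was 10.7, 12.7 and 13.4 CPM with crizotinib and 9.04, 8.41 and 8.76 CPM with the combination. The 4 groups did not overlap, and their order was control, IN10018, crizotinib, combination. How common such a lack of overlap was over all tested genes is not given here, for JUN or for the other members below. Means were 56.3 ± 15.8, 22.2 ± 4.29, 12.3 ± 1.40 and 8.74 ± 0.318 CPM (SD, n = 3 each), so the spread among libraries was widest in control. In edgeR's quasi-likelihood test with Benjamini-Hochberg adjustment over all tested genes, JUN fell by 1.35 ± 0.18 (SE) on the log2 scale with IN10018 (adjusted p = 0.0051), by 2.20 ± 0.19 with crizotinib (adjusted p = 2.0e-05) and by 2.69 ± 0.20 with the combination (adjusted p = 2.2e-06). These are 0.393, 0.218 and 0.155 of the control level. Only 0.146, 0.111 and 0.129% of tested genes had a lower change in the 3 comparisons.

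Adding crizotinib to IN10018 lowered JUN by a further 1.34 ± 0.19 (edgeR adjusted p = 3.7e-04), and crizotinib alone left JUN lower than IN10018 alone, by -0.85 ± 0.19 on the log2 scale (adjusted p = 0.022). Adding IN10018 to crizotinib gave -0.49 ± 0.20, with an approximate 95% interval from -0.95 to -0.03, which did not pass (adjusted p = 0.21). The fall with both drugs was smaller than the sum of the single falls by 0.86 ± 0.27, an interaction that did not pass over all genes either (adjusted p = 0.41, unadjusted 0.0064). The call against IN10018 of -0.85 was lost when only the 6 libraries compared were fitted (adjusted p = 0.055), and so was the IN10018 call against control (-1.33, adjusted p = 0.051). The IN10018 call was also lost without IN10018 library 1 (-1.25) or 2 (-1.30), and the call between the single drugs without IN10018 library 1 (-0.95), 2 (-0.90) or 3 (-0.70) or crizotinib 3 (-0.93).

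**Figure D1:**
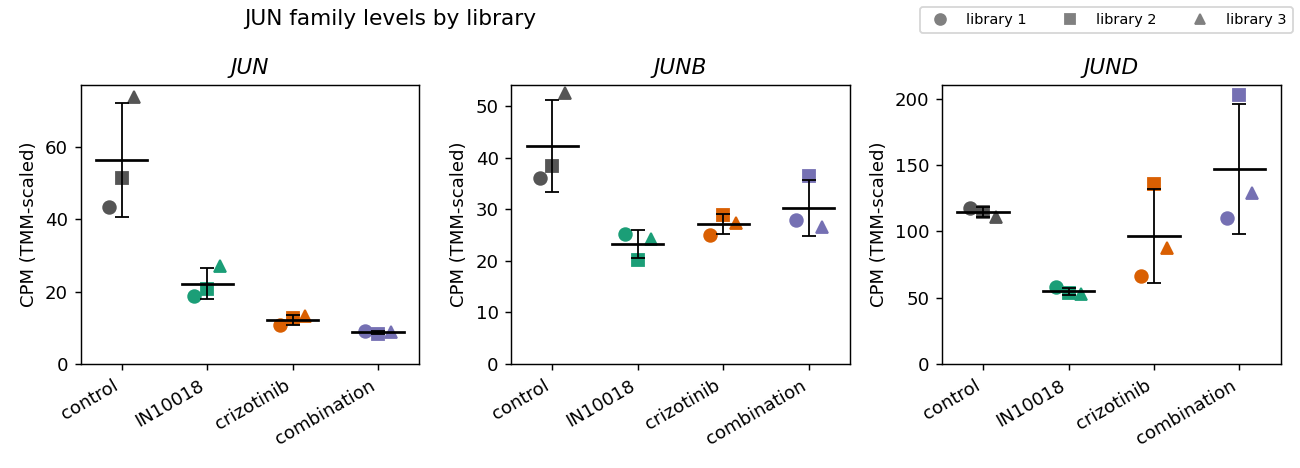
Level of JUN, JUNB and JUND (y axis, CPM on a linear axis from 0) in the 3 libraries of each of the 4 treatment groups (x axis). Circles, squares and triangles are libraries 1, 2 and 3, lines are group means and bars the SD. JUN steps down from 56.3 CPM in control to 8.74 CPM with both drugs, JUNB lies between 20.1 and 36.4 CPM in all treated libraries, and JUND ranges from 52.7 to 203 CPM.

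The share of genes that passed gives the background for these counts. With IN10018, 0.158% of tested genes were called lower and 0.345% higher (0.503% in all), and 2 of the 3 family members, JUN and JUNB, were called lower. With crizotinib 17.6% of genes were called lower and 20.0% higher, and with the combination 29.1% were lower and 33.7% higher; JUN and JUNB were again the members called lower. With sequencing totals as the only scaling instead of TMM, the 3421 higher and 3014 lower genes with crizotinib became 4827 and 1948, the 5761 higher and 4968 lower genes with the combination became 7113 and 3763, and the median change of all genes moved by 0.12 and 0.18. In all, 37.6 and 62.8% of genes were called in these 2 comparisons, so a call there is common. The crizotinib background depended on single libraries, since the 3421 higher and 3014 lower genes were 1766 and 1372 without control 1, 1354 and 2331 without control 3 and 1770 and 1876 without crizotinib 2. All 3 comparisons share the control libraries.

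JUNB also fell, but by less, and its lowest level was with IN10018 alone. It stood at 36.0, 38.3 and 52.5 CPM in control and 25.2, 20.1 and 24.3 CPM with IN10018. With crizotinib it was 25.1, 28.9 and 27.4 CPM, and with the combination 27.9, 36.4 and 26.5 CPM. Single-drug libraries all lay below control, whereas combination 2, at 36.4 CPM, lay above the lowest control library. Group means were 42.3 ± 8.92, 23.2 ± 2.69, 27.1 ± 1.90 and 30.3 ± 5.38 CPM (SD, n = 3 each). By edgeR, JUNB fell by 0.87 ± 0.16 on the log2 scale with IN10018 (adjusted p = 0.029), by 0.64 ± 0.16 with crizotinib (adjusted p = 0.0098) and by 0.49 ± 0.16 with the combination (adjusted p = 0.017). The combination call was lost under scaling by library totals (-0.30, adjusted p = 0.10) and without control 3 (-0.36), combination 1 (-0.43) or combination 3 (-0.39). The IN10018 call was lost without any 1 of 6 libraries, namely control 1 or 3, IN10018 1, 2 or 3, or crizotinib 3, with changes from -0.94 to -0.71.

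Among the treated groups, no difference in JUNB passed over all genes, although every combination library lay above every IN10018 library. That difference was 0.38 ± 0.16 on the log2 scale (95% interval 0.01 to 0.76, edgeR adjusted p = 0.056) and passed with only the libraries compared (0.38, adjusted p = 0.047) and under scaling by library totals (0.50, adjusted p = 0.016). The combination differed from crizotinib by 0.15 ± 0.16 on the same scale (-0.22 to 0.53, adjusted p = 0.56). Crizotinib differed from IN10018 by 0.23 ± 0.16 (-0.14 to 0.60, adjusted p = 0.30). A second gene, HOOK2, has an exon on the opposite strand within JUNB, and the strand setting of the counting is not given in the sources used here, so reads of the pair cannot be told apart with certainty. HOOK2, which encodes a cargo adaptor of microtubule motors, averaged 11.7 ± 0.771 CPM in control, 14.5 ± 0.845 with IN10018, 25.5 ± 9.57 with crizotinib and 43.1 ± 13.6 with the combination (SD, n = 3 each). Against control it rose by 1.12 with crizotinib (edgeR adjusted p = 0.0060) and by 1.87 with the combination (adjusted p = 8.0e-05), opposite to JUNB. Among the treated groups HOOK2 and JUNB differed in the same direction. HOOK2 exceeded its IN10018 level by 1.57 with the combination (edgeR adjusted p = 3.9e-04) and by 0.82 with crizotinib (adjusted p = 0.033). Between the combination and crizotinib it differed by 0.76 (adjusted p = 0.21). The part of HOOK2 in the JUNB counts was not tested.

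JUND, the most abundant member per length, was low with IN10018 alone and variable wherever crizotinib was present. It stood at 118, 115 and 111 CPM in control and at 57.9, 53.8 and 52.7 CPM with IN10018. With crizotinib it was 66.5, 136 and 87.4 CPM, and with the combination 110, 203 and 129 CPM. The IN10018 libraries lay below all others, while the crizotinib and combination libraries straddled control. The highest value of each of those groups was in library 2, the library with the lowest mitochondrial share. Means were 115 ± 3.57, 54.8 ± 2.74, 96.7 ± 35.8 and 147 ± 49.2 CPM (SD, n = 3 each).

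JUND with IN10018 stood at -1.06 ± 0.24 on the log2 scale against control (95% interval -1.61 to -0.52), which did not pass over all genes by edgeR (adjusted p = 0.068, unadjusted 4.9e-04), although only 0.374% of genes had a lower change. The adjusted p depended on the libraries of the other groups, whose spread enters the fit. Without crizotinib 2 and combination 2 the same change of -1.06 had an adjusted p of 9.4e-09, and with only control and IN10018 libraries fitted it was -1.03 (adjusted p = 5.2e-14). Calls were more common over all genes in these fits. They were 629 higher and 235 lower in the former and 1314 and 879 in the latter, against 59 and 27 in the main fit. For JUND, DESeq2 gave -1.11 (adjusted p = 0.0013) and limma-voom -1.06 (adjusted p = 0.077). Crizotinib against control gave -0.24 ± 0.23 (interval -0.78 to 0.29, edgeR adjusted p = 0.41), and -0.57 without those 2 libraries (adjusted p = 6.4e-05). The combination gave 0.36 ± 0.23 (interval -0.17 to 0.90, adjusted p = 0.19).

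JUND was higher with crizotinib present than with IN10018 alone. The combination exceeded IN10018 by 1.42 ± 0.24 (edgeR adjusted p = 4.9e-04) and crizotinib exceeded IN10018 by 0.82 ± 0.24 (adjusted p = 0.032). The libraries did not overlap in either comparison, and how common that was over all genes is not given here. In the first, 29.7% of genes were called higher and 27.5% lower (57.2% in all), with JUND higher and JUN lower among the members. In the second, 11.5% were called higher and 10.3% lower (21.9% in all), again with JUND higher and JUN lower. The second call was lost when crizotinib 2 was left out (0.49), and also without control 3, crizotinib 3 or any 1 of the IN10018 libraries, which gave up to 1.02. The combination exceeded crizotinib by 0.61 ± 0.23 (interval 0.07 to 1.14, adjusted p = 0.21), a comparison in which edgeR called 0.0117% of all genes and no family member. At an unadjusted p under 0.05 by edgeR, JUND (0.021) and JUN (0.026) were past it there and JUNB (0.35) was not. Of all 17096 tested genes, 3697 were past it in either direction. Limma-voom called none of the members there. No label says that library numbers pair these 2 groups. Between libraries of like number, JUND was higher with the combination, going from 6.06 to 6.78, from 7.09 to 7.67 and from 6.45 to 7.01 log2 CPM. With the replicate block the difference was 0.61 (edgeR adjusted p = 0.076). Without crizotinib 2 alone, 2614 genes were called higher and 3026 lower there, and JUND was called higher by 0.93 (adjusted p = 0.0047). Without crizotinib 2 and combination 2 the JUND difference was 0.64 (edgeR adjusted p = 2.5e-04), and 1877 genes were called higher and 2475 lower.

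Changes over all genes differed with the GC content of transcripts, and JUNB and JUND are both GC-rich. Among the 1687 tested genes in the top 10% of GC content (61.3% or more), which include JUNB and JUND but not JUN, 43.1% were called higher with crizotinib and 73.9% with the combination, against 20.0 and 33.7% of all tested genes. The median change of this set was 0.54 with crizotinib and 0.93 with the combination, against 0.08 and 0.10 for all genes. With IN10018 the set's median was -0.02, the same as for all genes. Only 1.60 and 3.08% of the set were called lower with crizotinib and the combination. JUNB was among those in both comparisons (-0.64 and -0.49), against the direction of the set's medians. JUND's changes of -0.24 and 0.36 were also below those medians.

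A fit with an offset for GC content and length per library, which takes out the part of each change shared by genes of like composition, gave a different picture for the pair. For JUND the offset ran from -0.55 to -0.37 (log2) in the control and IN10018 libraries, and was -0.17, 0.66 and 0.08 in crizotinib libraries 1 to 3 and 0.64, 1.27 and 0.48 in combination libraries 1 to 3. With it, JUND fell by 1.00 ± 0.10 with IN10018 (edgeR adjusted p = 7.6e-05), by 0.96 ± 0.10 with crizotinib (adjusted p = 2.2e-05) and by 0.94 ± 0.10 with the combination (adjusted p = 6.1e-06). The SD of log2 CPM among crizotinib libraries went from 0.52 to 0.11 and among combination libraries from 0.46 to 0.20. Differences among the treated groups were then 0.06, 0.02 and 0.05, with adjusted p of 0.63, 0.94 and 0.77, so the calls of JUND as higher with crizotinib present were lost.

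With the same offset JUNB fell by 0.88, 1.26 and 1.57 with IN10018, crizotinib and the combination (edgeR adjusted p = 0.012, 1.5e-04 and 6.4e-06), and the combination lay below IN10018 by -0.70 (adjusted p = 0.0026), the reverse of the difference without the offset. JUN kept its direction, with -1.36, -2.49 and -3.10. The direction of JUND with the combination and of JUNB between treated groups therefore depends on whether composition is modelled, while the changes with IN10018 were of like size without and with the offset (-1.35 and -1.36 for JUN, -0.87 and -0.88 for JUNB). For JUND with IN10018 the size was also alike. It did not pass in the main fit but passed with the offset, as it did in some other fits without the offset given above. 

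**Figure D2:**
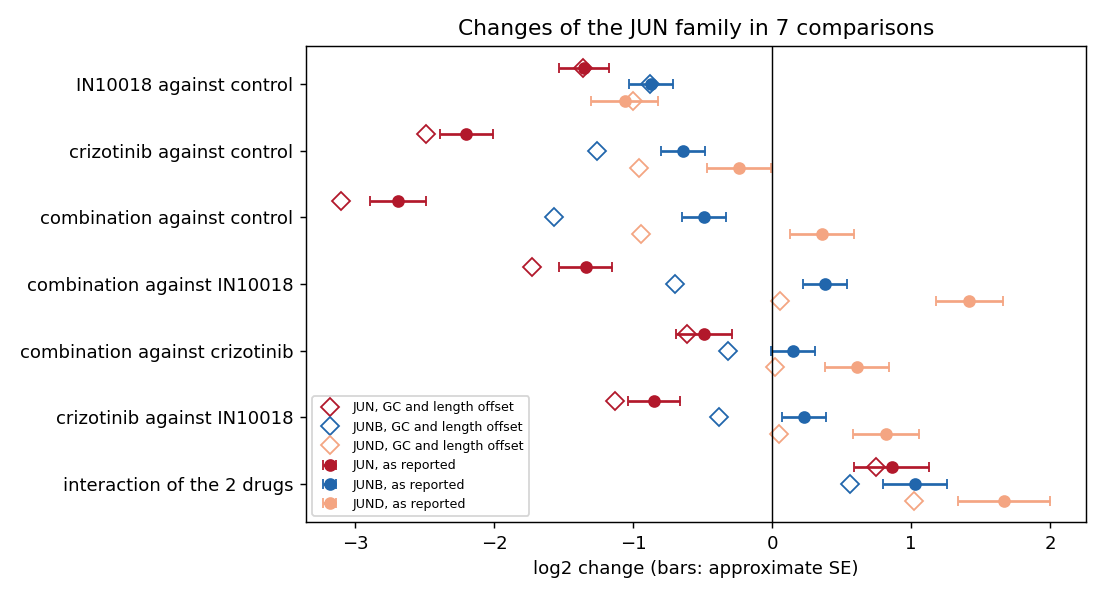
Log2 change (x axis) of JUN, JUNB and JUND in each of the 7 comparisons (y axis). Filled points are edgeR estimates with bars of 1 approximate SE, and open diamonds are the estimates with the offset for GC content and length. JUN lies below 0 in all comparisons but the interaction, and JUND with the combination moves from 0.36 to -0.94 with the offset.

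Each member departed from additivity in the same direction without passing over all genes. The interaction, the effect of 1 drug in the presence of the other minus its effect alone, was 0.86 ± 0.27 for JUN, 1.03 ± 0.23 for JUNB (95% interval 0.50 to 1.55) and 1.67 ± 0.33 for JUND (0.90 to 2.43). Only 12 genes, or 0.0702% of those tested, were called by edgeR, and no member was; the members' adjusted p values were 0.41, 0.19 and 0.12, and unadjusted values 0.0064, 5.0e-04 and 1.8e-04. JUND's interaction was higher than that of 99.6% of genes. DESeq2 called it for JUNB (1.06, adjusted p = 0.015) and JUND (1.71, adjusted p = 6.3e-04), and with the GC and length offset it was 0.56 for JUNB (adjusted p = 0.48) and 1.02 for JUND (adjusted p = 0.0051).

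Ratios of members within a library do not depend on scaling between libraries. The log2 ratio of JUN to JUNB was 0.40 ± 0.11 in control, -0.07 ± 0.30 with IN10018, -1.14 ± 0.10 with crizotinib and -1.77 ± 0.29 with the combination (SD, n = 3 each). Crizotinib moved this ratio by -1.62 averaged over the absence and presence of IN10018 (-1.54 and -1.70), and IN10018 moved it by -0.55 (-0.47 and -0.63). Both had a two-sided exact permutation p of 0.005, the smallest the 400 arrangements allow, and 0.01 after adjustment over the 6 ratio tests. JUN thus fell relative to JUNB with each drug. In the presence of the other drug JUNB itself did not fall in the main fit. It stood at 0.38 when crizotinib was added and 0.15 when IN10018 was added, and neither passed by edgeR.

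JUN relative to JUND went from -1.06 ± 0.44 in control to -1.32 ± 0.33, -2.92 ± 0.44 and -4.02 ± 0.51 with IN10018, crizotinib and the combination (SD, n = 3 each). The crizotinib effect was -2.28 (exact permutation p = 0.005, adjusted 0.01) and the IN10018 effect -0.68 (exact p = 0.05, adjusted 0.06). JUNB relative to JUND went from -1.46 ± 0.33 in control to -1.25 ± 0.15, -1.77 ± 0.43 and -2.25 ± 0.25. Here crizotinib gave -0.66 (exact permutation p = 0.025, adjusted 0.038), and IN10018 gave -0.13 (exact p = 0.52, adjusted 0.52). The crizotinib call was lost without control 3 (-0.56, adjusted exact p = 0.068), IN10018 library 1 (-0.64, 0.06) or 2 (-0.70, 0.053) or crizotinib 2 (-0.54, 0.054), and without crizotinib 2 and combination 2 together (-0.48, 0.12). Ratios after the GC and length offset, which composition enters since members differ in GC content, kept these directions, at -1.11 and -1.62 for JUN against JUNB and JUND with crizotinib.

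**Figure D3:**
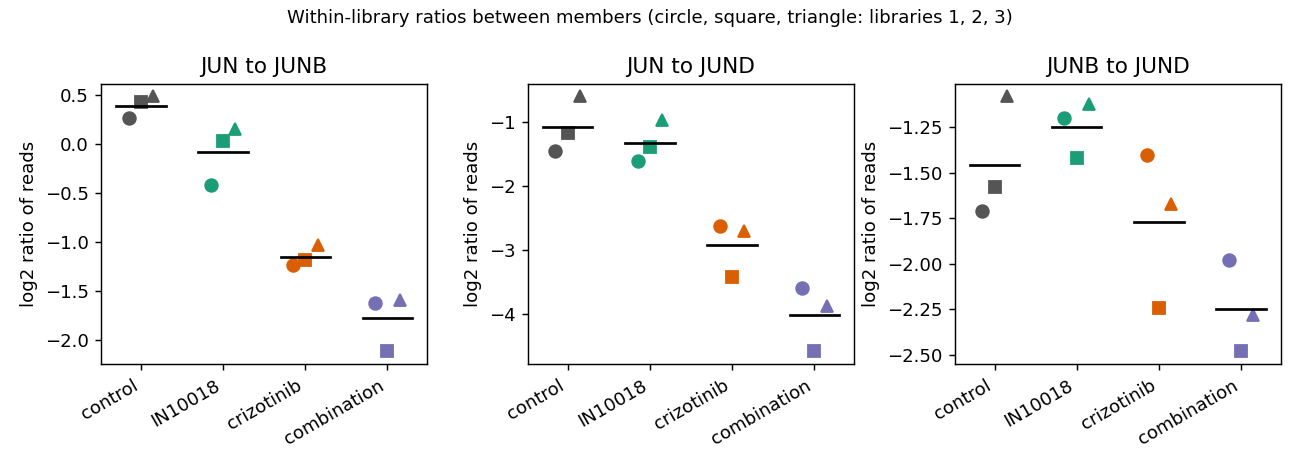
Log2 ratio of reads between pairs of members within each library (y axis) by treatment group (x axis), with a panel per pair. Circles, squares and triangles are libraries 1, 2 and 3, and lines are group means. JUN relative to JUNB falls from 0.40 in control to -1.77 with both drugs.

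Per length, the mix of the family moved from JUN toward JUND. Levels in CPM per kb of exon in control were 15.9 ± 4.46 for JUN, 23.2 ± 4.90 for JUNB and 61.5 ± 1.92 for JUND (SD, n = 3), so JUND led and JUN was lowest. With the combination the per-length levels were 2.47 ± 0.0898, 16.6 ± 2.96 and 79.0 ± 26.4. Summed over the members, the per-length total was 101 ± 7.54 in control, 48.4 ± 2.37 with IN10018, 70.3 ± 20.4 with crizotinib and 98.1 ± 29.1 with the combination. JUN's share of that total was 15.6 ± 3.18% in control, 12.9 ± 2.44% with IN10018, 5.14 ± 1.09% with crizotinib and 2.67 ± 0.778% with the combination. JUND's share was 61.4 ± 6.18, 60.8 ± 2.99, 72.8 ± 5.65 and 80.0 ± 3.13%, and JUNB's 22.9 ± 3.04, 26.2 ± 1.82, 22.1 ± 4.62 and 17.3 ± 2.40%. The shares describe uncorrected counts, in which JUND carries the GC trend given above.

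**Figure D4:**
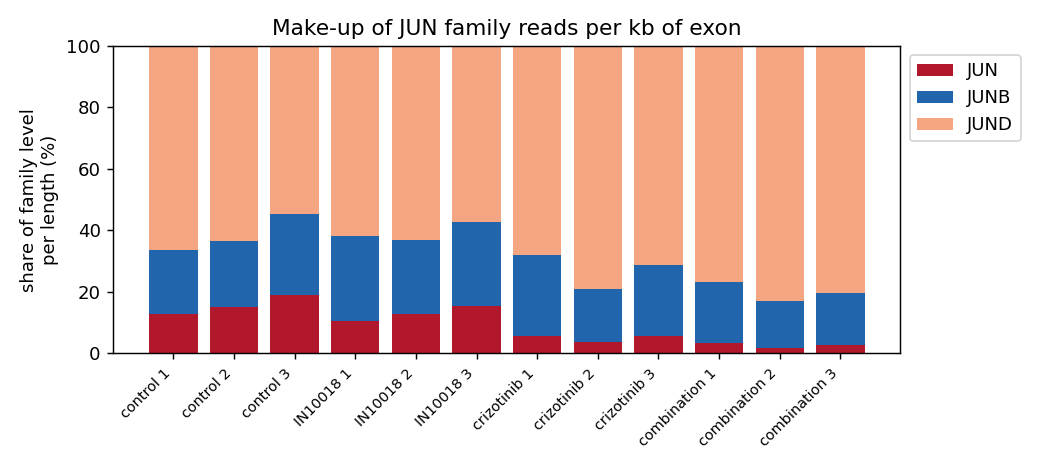
Share of each member in the summed family level per kb of exon (y axis, percent), stacked for each of the 12 libraries (x axis). JUN's share is 15.6% on average in control and 2.67% with both drugs, and JUND's is 61.4 and 80.0%.

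Among the dimer partners, FOS fell from 945 ± 116 CPM in control to 407 ± 28.8, 145 ± 24.1 and 13.0 ± 4.40 CPM with IN10018, crizotinib and the combination, and FOSB from 483 ± 102 to 196 ± 13.0, 23.3 ± 4.72 and 2.70 ± 0.278 CPM (SD, n = 3 each). Of the 4 FOS genes, edgeR called 2, 3 and 3 lower in the 3 treatments, beside 0.158, 17.6 and 29.1% of all genes. None was called higher (limma-voom, DESeq2 and an unadjusted p under 0.05 with IN10018 also gave none). FOS and FOSB were the 2 genes called between the combination and crizotinib.

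Among the other partners, of the ATF, MAF, BATF and JDP2 families, calls were made in both directions. Of 15 tested of 19 listed, 0 were called higher and 1 lower with IN10018, beside 0.345 and 0.158% of all genes. At an unadjusted p under 0.05 these were 0 and 2, beside 1886 of 17096 tested genes in either direction. There were 4 higher and 4 lower with crizotinib, and 7 higher and 4 lower with the combination. Over all genes, 20.0% were higher and 17.6% lower with crizotinib and 33.7 and 29.1% with the combination. The crizotinib counts were 1 lower without control 1, 2 higher without control 3, and 2 higher and 1 lower without crizotinib 2. Median changes were -0.14, 0.23 and 0.41, against -0.02, 0.08 and 0.10 for all genes. ATF3, a stress-induced partner of JUN that often represses, fell from 23.4 ± 2.78 CPM in control to 2.89 ± 0.446 with IN10018 and to 0.664 ± 0.232 and 0.662 ± 0.272 with crizotinib and the combination (SD, n = 3 each), by 3.02, 5.13 and 5.15 on the log2 scale (edgeR adjusted p = 1.2e-05, 6.7e-08 and 4.9e-08). It was the only listed partner of this group whose interaction passed (3.01, adjusted p = 0.016).

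ATF2, which pairs with JUN on the cyclic AMP response element, fell by 0.57 with crizotinib (edgeR adjusted p = 0.023) and 0.88 with the combination (adjusted p = 7.5e-04). NFE2L2, the antioxidant regulator NRF2, fell by 0.50 and 0.87 (adjusted p = 0.019 and 2.8e-04). The small MAF proteins, which lack an activation domain, went both ways. MAFG rose by 0.62 and 0.85 (adjusted p = 0.0046 and 1.4e-04) and MAFK by 0.64 and 1.21 (adjusted p = 0.027 and 3.0e-04). MAFF stood at -0.33 with crizotinib, called lower, and at -0.25 with the combination, not called. With the GC and length offset MAFF was -0.69 and -0.85, called lower in both. ATF4 and DDIT3, factors of the integrated stress response, rose by 0.42 and 0.63 (adjusted p = 0.022 and 8.9e-04) and by 0.73 and 1.10 (adjusted p = 0.012 and 3.2e-04). With IN10018 alone the 6 genes other than MAFF lay between -0.15 and 0.20, and none passed. MAFF was at -0.18 there and did not pass. With the GC and length offset the crizotinib calls of ATF2 (-0.20), ATF4 (0.05) and MAFK (0.20) were lost, as was ATF4 with the combination (0.10). ATF2 and MAFK with the combination were -0.25 and 0.46 with it, MAFG was 0.35 and 0.48, and DDIT3 was 0.46 and 0.73 with crizotinib and the combination, and these still passed. The counts became 2 higher and 3 lower with crizotinib and 3 higher and 5 lower with the combination. Of all 17096 genes, the fit with the offset called 2686 higher and 2917 lower with crizotinib and 4851 and 4629 with the combination.

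**Figure D5:**
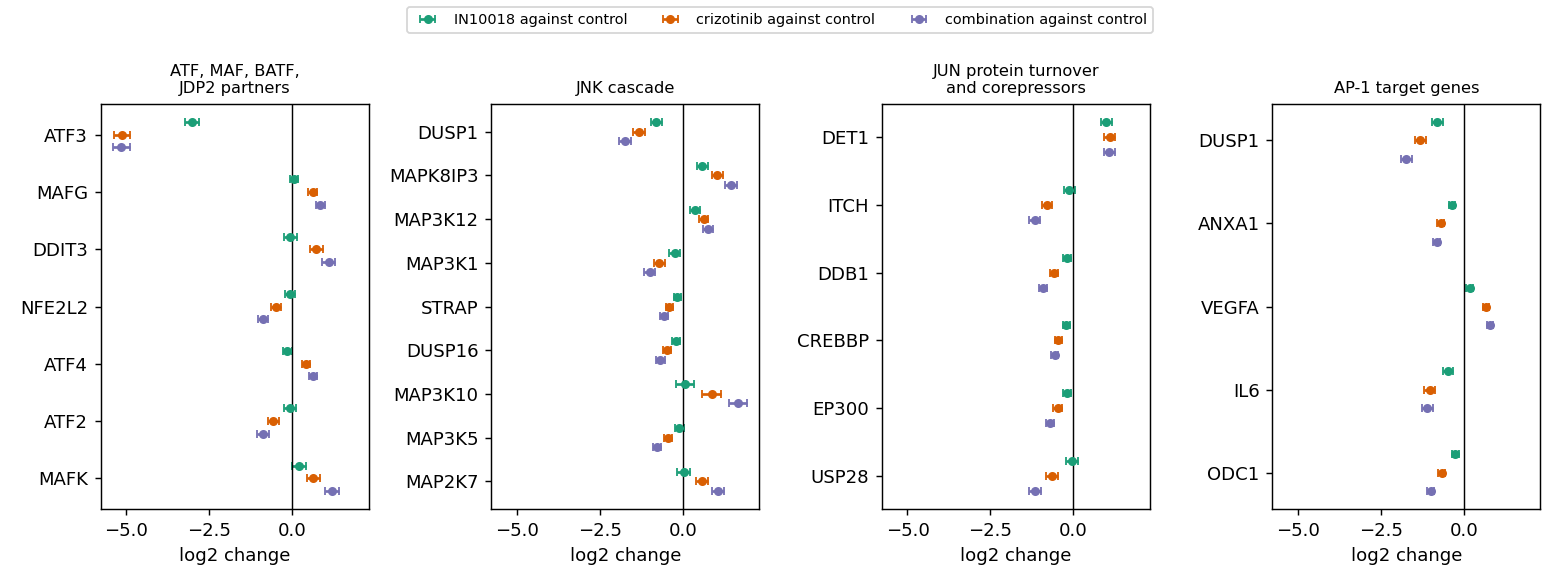
Log2 change against control (x axis) of named genes (y axis) in 4 lists, with IN10018, crizotinib and the combination in separate colours. Points are edgeR estimates and bars 1 approximate SE. ATF3 lies farthest from 0 among the genes drawn, at -5.15 with both drugs, and DET1 is near 1 in all 3 treatments.

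In the JNK cascade, whose kinases phosphorylate JUN, calls with crizotinib and the combination were made in both directions. In the main fit the shares called higher were near those of all genes, and the shares called lower were above them. Of 29 tested of 30 listed, none was called with IN10018 by edgeR, beside 0.503% of all genes (0 by limma-voom and 1 by DESeq2). At an unadjusted p under 0.05, 3 were higher and 2 lower, beside 1886 of 17096 tested genes in either direction. There were 5 higher and 8 lower with crizotinib and 9 higher and 11 lower with the combination, beside all-gene shares of 20.0% higher and 17.6% lower in the former and 33.7 and 29.1% in the latter. The list's medians were -0.10, -0.08 and 0.00. The crizotinib counts were 2 higher and 2 lower without control 1, 2 higher without control 3, 2 higher and 4 lower without crizotinib 2 and 5 lower without crizotinib 3. Under other settings, the GC and length offset among them, they ran from 2 to 7 higher and from 6 to 10 lower. The combination counts ran from 7 to 12 higher and from 10 to 14 lower under those settings. DUSP1, an immediate-early phosphatase that switches off JNK, p38 and ERK, fell from 271 ± 30.4 CPM to 109 ± 27.3 with crizotinib and 80.9 ± 12.9 with the combination (SD, n = 3 each), by 1.32 and 1.74 on the log2 scale (edgeR adjusted p = 7.0e-04 and 3.3e-05). DUSP1 with IN10018 stood at -0.80 (adjusted p = 0.058). DUSP16, a JNK phosphatase, fell by 0.48 and 0.68 (adjusted p = 0.015 and 7.1e-04) in the crizotinib and combination groups.

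Kinases and scaffolds above JNK went both ways. MAPK8IP3, a JNK scaffold, rose from 36.5 ± 6.69 CPM to 74.8 ± 14.9 and 99.8 ± 16.8 (SD, n = 3 each), by 1.04 and 1.45 (edgeR adjusted p = 0.0020 and 5.5e-05). MAP3K12, which relays stress to JNK, rose by 0.63 and 0.76 (adjusted p = 0.0065 and 4.9e-04). MAP3K10 rose by 0.87 and 1.66 (adjusted p = 0.026 and 2.6e-04) and MAP2K7, the JNK-specific kinase kinase, by 0.58 and 1.06 (adjusted p = 0.031 and 4.4e-04). MAP3K1 fell by 0.71 and 1.00 (adjusted p = 0.0074 and 2.5e-04) and MAP3K5, the stress kinase ASK1, by 0.45 and 0.78 (adjusted p = 0.020 and 3.1e-04). STRAP, a WD-repeat adaptor, fell by 0.41 and 0.57 (adjusted p = 0.013 and 6.9e-04). With the GC and length offset the crizotinib calls of MAP2K7 (0.17) and MAP3K10 (0.34) were lost, and with the combination MAP3K10 was 0.69 and MAP2K7 0.36. MAPK8IP3 was 0.68 and 0.79 and MAP3K1 -0.44 and -0.53 with crizotinib and the combination, and these still passed.

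Of 21 genes of JUN protein turnover and JUN cofactors, all tested, 1 was called higher and 0 lower with IN10018, beside 0.345 and 0.158% of all genes. At an unadjusted p under 0.05 these were 2 and 0, beside 1886 of 17096 tested genes in either direction. There were 3 higher and 8 lower with crizotinib, and 3 higher and 9 lower with the combination (medians in the 3 treatments -0.07, -0.11 and -0.15). Over all genes, 20.0% were higher and 17.6% lower with crizotinib and 33.7 and 29.1% with the combination. The crizotinib counts of 3 and 8 were 1 and 2 without control 1, 1 and 5 without control 2, control 3 or crizotinib 2, and 5 lower without IN10018 library 3. Under other settings, the GC and length offset among them, they ran from 2 to 4 higher and from 5 to 9 lower. The combination counts ran from 3 to 6 higher and from 8 to 11 lower under those settings. DET1, part of the COP1 ubiquitin ligase that degrades JUN, rose in every treatment, from 2.95 ± 0.323 CPM to 5.85 ± 0.509, 6.31 ± 0.590 and 6.24 ± 0.535 (SD, n = 3 each), by 0.99, 1.09 and 1.08 (edgeR adjusted p = 0.017, 0.0012 and 1.3e-04). DDB1, an adaptor of the same ligase, fell by 0.57 and 0.92 with crizotinib and the combination (adjusted p = 0.0047 and 7.2e-05). ITCH, the ubiquitin ligase of JUN and JUNB, fell from 181 ± 8.62 CPM to 104 ± 24.8 and 80.5 ± 15.9, by 0.80 and 1.17 (adjusted p = 0.0045 and 1.0e-04). USP28, a deubiquitinase that opposes FBXW7 on JUN, fell by 0.63 and 1.17 (adjusted p = 0.017 and 1.7e-04). The acetyltransferase coactivators fell too, EP300 by 0.47 and 0.71 (adjusted p = 0.014 and 3.9e-04) and CREBBP by 0.45 and 0.56 (adjusted p = 0.0082 and 6.2e-04). With the GC and length offset the ITCH changes were -0.44 and -0.57 and still passed.

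Of 50 genes listed as AP-1 targets, 39 were tested, and JUN itself is one of them. With IN10018, 0 were called higher and 2 lower, JUN among them, beside 0.345 and 0.158% of all genes. At an unadjusted p under 0.05, 12 were lower and 0 higher, beside 1886 of 17096 tested genes in either direction. DESeq2 called 6 lower, beside 67 lower among all genes. With crizotinib 8 were higher and 16 lower, and with the combination 15 higher and 18 lower, with medians of -0.17, -0.18 and -0.23 in the 3 treatments. Over all genes, 20.0% were higher and 17.6% lower with crizotinib and 33.7 and 29.1% with the combination, so the counts called higher are near the background. The 8 higher with crizotinib were 3 without control 1, control 3 or crizotinib 2, 4 without control 2 or IN10018 library 1, and 5 without IN10018 library 2. DUSP1, described above, is on this list too. The cytokine IL6 fell by 1.03 and 1.10 with crizotinib and the combination (adjusted p = 0.0013 and 1.1e-04). ANXA1, a phospholipid-binding regulator of inflammation, fell by 0.70 and 0.82 (adjusted p = 8.5e-04 and 5.5e-05), and ODC1, the first enzyme of polyamine synthesis, by 0.67 and 1.00 (adjusted p = 0.0017 and 3.9e-05). VEGFA, the angiogenic growth factor, rose from 131 ± 2.36 CPM to 207 ± 18.8 and 226 ± 17.8, by 0.66 and 0.79 (adjusted p = 0.0013 and 6.9e-05). The GC and length offset gave 3 higher and 21 lower with crizotinib and 8 higher and 21 lower with the combination. Of all 17096 genes, that fit called 2686 higher and 2917 lower with crizotinib and 4851 and 4629 with the combination. ANXA1 was -0.38 and -0.28 with the offset and still passed.

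Each member was set beside the genes whose log2 CPM, centred on control, followed it most closely over the 12 libraries, among 12703 genes, as the root mean square (RMS) difference. JUN was nearest to EGR1 (0.132), followed by TRIB1 (0.341), NR4A2 (0.374), NR4A1 (0.419) and CITED2 (0.444). JUNB was nearest to HBEGF (0.201), MYADM (0.214), PIM1 (0.238), SPATA2 (0.249) and EID3 (0.255). JUND was nearest to SLC39A3 (0.197), LINC01315 (0.213), LRFN1 (0.249), ZNF628 (0.257) and NFKBIA (0.286). EGR1, like JUN an immediate-early gene, stood at -1.29, -2.03 and -2.75 on the log2 scale in the 3 treatments. The members were farther from each other than from these genes, which were picked as the nearest. The RMS difference was 0.503 for JUNB and JUND, 1.359 for JUN and JUNB and 1.779 for JUN and JUND. For JUND, 1.24% of genes were closer than JUNB and 99.7% closer than JUN. For JUNB, 17.7% were closer than JUND and 94.7% closer than JUN. For JUN, 12.6% were closer than JUNB and 46.0% closer than JUND. These distances are descriptions. They use log2 CPM without the GC and length offset, from libraries that differed in depth and in the GC trend given above. The part of that trend in the distances was not tested.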

How the data were processed

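RNA sequencing counts of 12 libraries in 4 treatment groups of 3 were analysed. The authors deposited whole read counts per gene, without normalization. The submitters' processing notes list featureCounts, HISAT2, DESeq2, FastQC and Trimmomatic, and the build names GRCh38 and hg38. Versions, annotation release and strand setting are not given in the sources used here. RNA was isolated with TRIzol and libraries made with a directional kit, per the labels' protocols.

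Counts from all 12 libraries entered 1 fit in edgeR 4.0.16 (R 4.3.3), with TMM scaling, filterByExpr by group and a robust quasi-likelihood F test on 7 contrasts. P-values were Benjamini-Hochberg adjusted over 17096 genes and called under 0.05. The approximate SE was taken as the size of a change over the root of its F value, and the 95% interval uses 8 degrees of freedom. The fit was tested on simulated data. Log2 ratios within libraries, with 0.5 added to each count, were compared by two-sided exact permutation within levels of the other drug. Lengths, GC content and positions came from GENCODE 29.

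Alternatives were other scalings, filters and tools (DESeq2 1.42.0, limma-voom in limma 3.58.1), a replicate block, fewer libraries, and an offset for GC content and length. Ratios after that offset were chosen after seeing the data. Same-numbered crizotinib and combination libraries deviated together (residual correlations 0.45 to 0.825). Crizotinib 1 was closer to combination 3 (0.625) than to combination 1 (0.450), and no label says that numbers mark pairs. Whether they do is therefore not settled. The members and gene lists were chosen with earlier results of these data known. MAFF was added beside MAFG and MAFK. From each list, genes named were those with the up to 6 smallest p-values with crizotinib and with the combination, plus, for each member, the 5 genes of most alike profile. A gene named by this rule is not reported here.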

Additional observations from a re-analysis of the deposited data

Results flagged for a closer look

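For JUNB, crizotinib went with lower levels in the absence of IN10018 and higher levels in its presence. Every crizotinib library lay below every control library (27.1 ± 1.90 against 42.3 ± 8.92 CPM), whereas every combination library lay above every IN10018 library (30.3 ± 5.38 against 23.2 ± 2.69 CPM; SD, n = 3 each). The test of this difference, the interaction, gave 1.03 on the log2 scale, with an unadjusted p of 5.0e-04 and an adjusted p of 0.19 by edgeR over all genes. With the offset for GC content and length it was 0.56 (edgeR adjusted p = 0.48), and JUNB was then lower with crizotinib in both settings.

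For JUND, IN10018 went with lower levels alone and higher levels beside crizotinib. Every IN10018 library lay below every control library (54.8 ± 2.74 against 115 ± 3.57 CPM). The combination mean lay above the crizotinib mean (147 ± 49.2 against 96.7 ± 35.8 CPM; SD, n = 3 each), and every combination library lay above the crizotinib mean. The groups overlapped. Between libraries of like number JUND was higher with the combination, but no label says that numbers mark pairs. The interaction was 1.67, with an unadjusted p of 1.8e-04 and an adjusted p of 0.12 by edgeR. With the offset it was 1.02 (edgeR adjusted p = 0.0051), at which the changes with the 3 treatments were of like size: JUND fell by 1.00, 0.96 and 0.94 on the log2 scale.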

How the results depend on the processing

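Member changes kept their direction and their side of the threshold in 195 of 228 recomputations under other settings and in 221 of 252 that left out 1 library. Ratios did so in 82 of 90. Gene list counts stayed within 1.5 times in 1367 of 1600 and counts over all genes in 231 of 320. The cause was not tested for the changes below, except that fitting only the libraries compared or leaving some out has fewer samples.

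Fitting only the libraries compared took the calls from JUN with IN10018 (-1.33), JUN between crizotinib and IN10018 (-0.85) and JUND there (0.82), and gave calls to JUNB between the combination and IN10018 (0.38) and JUND with IN10018 (-1.03). Without a filter on low counts, JUN passed between the combination and crizotinib (-0.51) and in the interaction (0.85), JUNB in the interaction (1.01), and JUND with IN10018 (-1.07), with the combination (0.34), between the combination and crizotinib (0.58) and in the interaction (1.66). Library totals took the JUNB call with the combination (-0.30) and gave one against IN10018 (0.50). DESeq2 gave calls to JUND with IN10018 (-1.11) and to the interactions of JUNB (1.06) and JUND (1.71). Without crizotinib 2 and combination 2, JUND passed with IN10018 (-1.06), crizotinib (-0.57), between the combination and crizotinib (0.64) and in the interaction (1.70), JUNB in the interaction (0.93), and the JUNB to JUND ratio no longer passed with crizotinib (-0.48).

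The GC and length offset reversed JUNB between the combination and IN10018 (-0.70), the combination and crizotinib (-0.32) and crizotinib and IN10018 (-0.38), and JUND with the combination (-0.94). It gave calls to JUND with IN10018 (which fell by 1.00), with crizotinib (-0.96) and in the interaction (1.02), and to the JUN to JUND ratio with IN10018 (-0.47). It took the JUND calls against IN10018 with the combination (0.06) and crizotinib (0.05). Without length scaling, family shares were 26.1, 22.1, 9.37 and 4.96% for JUN in control, IN10018, crizotinib and combination, 19.7 and 23.1% for JUNB and 54.2 and 54.8% for JUND in control and IN10018.

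With a replicate block, JUND with IN10018 (-1.06) and its interaction (1.67) passed. Same-number residual correlations outside the crizotinib and combination groups ran from -0.084 to 0.232, and no label says what a shared number marks. Between those 2 groups the block changed no member call.

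Leaving out 1 library gave ranges for JUN of -1.48 to -1.13 with IN10018 and -0.95 to -0.70 between crizotinib and IN10018. For JUNB they were -0.94 to -0.71 with IN10018, -0.66 to -0.36 with the combination, 0.19 to 0.45 against IN10018 with the combination, -0.01 to 0.23 between the combination and crizotinib (reversed without combination 2) and 0.84 to 1.09 in the interaction. For JUND they were -1.12 to -1.0 with IN10018, -0.58 to -0.02 with crizotinib, 0.29 to 0.93 between the combination and crizotinib, 0.49 to 1.02 between crizotinib and IN10018 and 1.33 to 2.0 in the interaction. Further JUND ranges were 0.04 to 0.53 with the combination and 1.08 to 1.60 between the combination and IN10018. For ratios they were -0.81 to -0.54 for JUN to JUND with IN10018 and -0.75 to -0.54 for JUNB to JUND with crizotinib.

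Over all genes, calls with IN10018 were 59 higher and 27 lower, and ran from 40 to 1314 and 24 to 879 under other settings and from 1 (without control 3 or IN10018 2) to 169 (without crizotinib 2) and from 6 (without IN10018 2) to 54 (without crizotinib 2) when 1 library was left out. With crizotinib they were 3421 and 3014, and ran from 1354 to 4468 and from 1372 to 3507 without 1 library. Between crizotinib and IN10018 they were 1974 and 1764, and were 2 and 2 with only the libraries compared, 5 to 10 and 8 to 14 without 1 of the IN10018 libraries, 19 and 19 without crizotinib 3 and 230 and 356 without crizotinib 2. Between the combination and crizotinib they were 0 and 2, and were 2614 and 3026 without crizotinib 2. In the interaction they were 10 and 2, and were 392 and 413 without crizotinib 2 and at most 933 and 984 under other settings. AP-1 targets called lower with IN10018 ran from 2 to 14 under other settings.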
